A study of Homo sapiens with 6 samples.

Results

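Ishikawa cells, an established human endometrial adenocarcinoma line of epithelial origin, were transfected with an siRNA against TCF19 (siTCF19, 3 libraries) or with a negative control siRNA (siNC, 3 libraries), and RNA was taken 48 hours later. Both groups received the same lipofection reagent and the same serum-containing medium. The genes described here are the collagen chain genes, chosen from the deposited table as protein-coding genes whose symbol is COL, a number, A and a number. This gave 44 genes of the 58735 in the table, and all 44 identifiers and coordinates equalled those of GENCODE release 29 on hg38. The labels do not say whether the 3 libraries of a group were separate cultures. The p-values therefore cover the spread among these libraries alone, and that spread may be technical.

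Collagens are secreted or membrane proteins in which alpha chains with regularly spaced glycines wind into a triple helix. The chains are grouped by the structure they build: fibrils, the basement membrane network of type IV, the short-chain networks, the beaded filaments of type VI, the anchoring fibrils of type VII, the FACIT collagens that sit on fibril surfaces, the transmembrane collagens and the multiplexins, whose C-terminal fragments include endostatin. Some types need several gene products for a helix, such as the chains of COL1A1 and COL1A2 in type I, or of COL9A1, COL9A2 and COL9A3 in type IX. In the endometrium, fibrillar collagens come mostly from stromal cells, while epithelial cells contribute to the basement membrane.

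TCF19 had 675, 529 and 606 counts in the siTCF19 libraries, against 2572, 2905 and 2756 in the siNC libraries, a log2 fold change of -2.20 ± 0.06 (SE). Library totals ran from 14680022 to 15529688 counts in siTCF19 and from 14872698 to 16244705 in siNC, and a floor of 3 counts equalled 0.190 to 0.206 CPM, the count scaled to a common library size. All 7 epithelial markers examined were expressed, with a summed level of 2851 to 2976 CPM in siTCF19 and 3012 to 3161 CPM in siNC. At an edgeR adjusted p under 0.05, CDH1 (log2 fold change 0.61) and KRT19 (0.44) were higher in siTCF19. KRT8 (-0.40) and KRT18 (-0.43) were lower, and the other 3 were not called. Among all tested genes, 20.7% were called higher and 20.8% lower. The 8 fibroblast and stroma markers summed to only 1.93 to 2.87 CPM in siTCF19 and 1.58 to 2.23 CPM in siNC, with DCN at 0 and LUM at 1 count over all libraries. The 3 chondrocyte markers (ACAN, MATN3 and COMP) summed to 0.709 to 0.802 CPM in siTCF19 and 0.513 to 1.37 CPM in siNC, and the 3 leukocyte markers to 0.0633 to 0.258 CPM and 0.127 to 1.35 CPM. The 4 endothelial markers summed to 13.8 to 17.3 CPM in siTCF19 and 6.56 to 6.99 CPM in siNC. They did not move together. VWF rose (15.5 ± 1.98 CPM in siTCF19 and 5.13 ± 0.38 CPM in siNC, edgeR adjusted p = 5.3e-13). CDH5 had 5, 4 and 3 counts in siTCF19 against 12, 14 and 19 in siNC (log2 fold change -1.89, edgeR adjusted p = 0.00216). It was near the floor in siTCF19 and passed edgeR's filter on low counts through the siNC libraries. PECAM1 was not tested and had 3, 2 and 0 counts in siTCF19 against 6, 15 and 8 in siNC. KDR had 1 count in all. What part this has in the collagen values was not tested.

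Collagen transcripts were a small share of these libraries: the 44 genes together took 0.0788% to 0.0835% of the counts in siTCF19 and 0.0629% to 0.0648% in siNC, and the groups did not overlap. A gene was tested when it passed edgeR's filter on low counts, and was called expressed when its mean over the 6 libraries was at least 1 CPM. Of the 44 chains, 26 were tested, 24 of them expressed, 14 had some counts but were not tested, and 4 had none. The tested chain with the fewest counts was COL4A3, with 70 over all libraries, and the untested chain with the most was COL10A1, with 62.

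Per gene length, a few chains made up most of the collagen RNA. The deposited FPKM are counts scaled by the deposited gene length and library size, so the order of genes depends on that length. On this scale COL9A2 was the highest, with a mean of 42.3 FPKM in siTCF19 and 28.3 in siNC. It was followed, by the mean over all libraries, by COL6A1 (18.5 in siTCF19 and 14.8 in siNC), COL18A1 (15.5 and 8.09), COL1A2 (9.01 and 14.3), COL9A3 (8.93 and 7.55) and COL26A1 (8.86 and 7.05). These 6 chains held 81.0% of the summed collagen FPKM in siTCF19 and 80.0% in siNC, and the order of COL18A1 and COL1A2 was opposite in the groups. At the other end, COL3A1, the main partner of type I in stromal fibrils, had 2 counts in all 6 libraries, COL5A1 had 4 and COL6A3 had 3. No count was recorded for COL11A1, COL5A3, COL6A5 or COL22A1, which allows up to 3 counts per library for each.

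**Figure D1:**
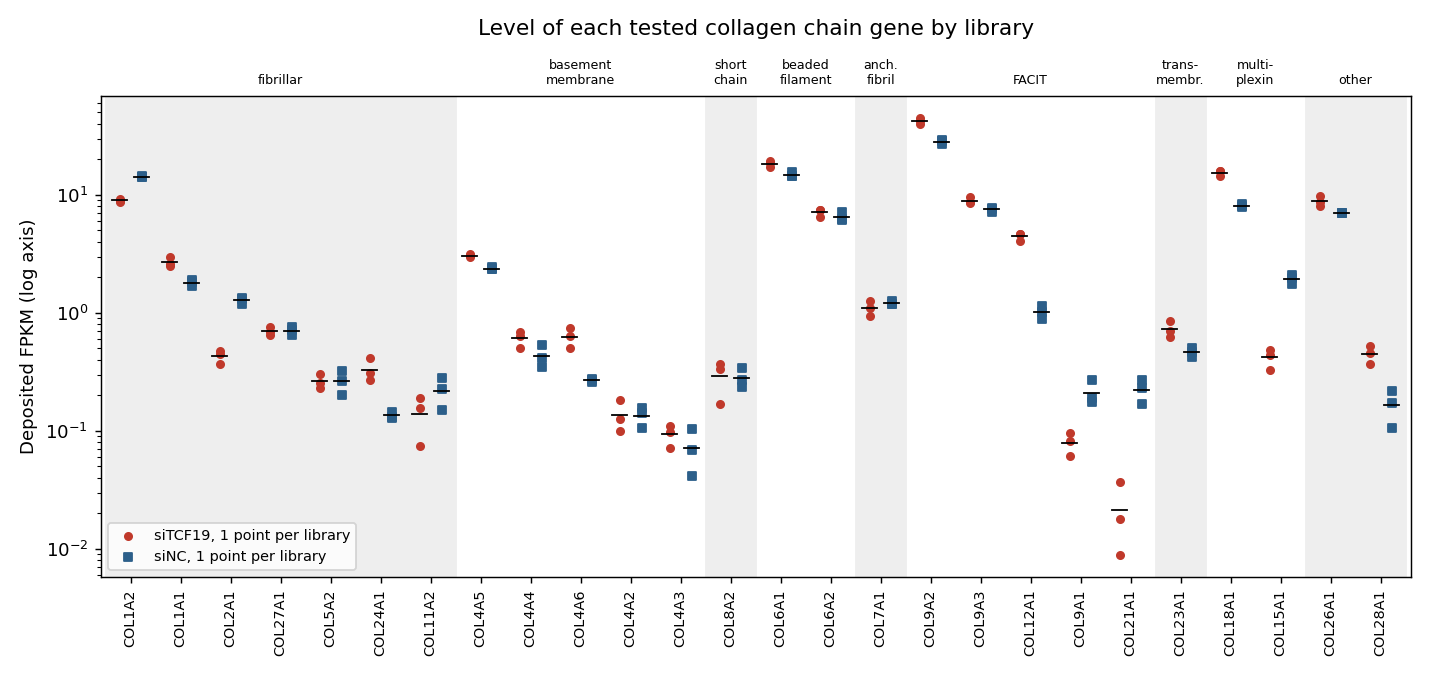
Deposited FPKM (log axis) of the 26 tested collagen chain genes, ordered by class and, within a class, by mean level. Each point is 1 library (circles siTCF19, squares siNC), and the short line is the group mean. COL12A1, COL18A1 and COL4A6 are seen clearly higher in siTCF19, and COL2A1, COL15A1 and COL21A1 clearly lower.

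In several types, the chains of a helix were at very unequal levels. COL9A2 and COL9A3 were among the highest chains while COL9A1, the remaining chain of type IX, averaged 0.0798 FPKM in siTCF19 and 0.211 FPKM in siNC. COL6A1 and COL6A2 were high while COL6A3, COL6A5 and COL6A6, the candidates for the remaining chain of type VI, had 3, 0 and 27 counts in all. COL4A2 had 244 counts and COL4A1, its partner in the common type IV helix, had 2. Measured RNA says nothing of protein, and these genes' counts cover all transcript forms of a gene together.

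The groups differed in most of the tested chains, and in both directions. Of the 26 tested chains, 13 were higher and 5 lower in siTCF19 at an edgeR adjusted p under 0.05, and 8 were not called. That is 69.2% called, beside a background of 41.5% of all 17299 tested genes. By direction, 13 of 26 were higher, beside 20.7% of all genes, and 5 of 26 were lower, beside 20.8%. Among expressed genes alone the background was 44.7%, and 17 of the 24 expressed chains (70.8%) were called. The median log2 fold change of the tested chains was 0.28, beside 0.00 for all tested genes. Without TMM factors, on library size alone, 14 chains were called higher and 5 lower, and higher genes were 61.4% of all calls in place of 49.9%. In 17 of the 26 the groups did not overlap (65.4%), 12 with siTCF19 above and 5 with siTCF19 below, beside 49.2% of all tested genes, and for expressed chains in 16 of 24, beside 52.1%.

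Large differences were also seen. A called change of 2-fold or more was found in 8 of the 26 chains (30.8%), beside 4.85% of all tested genes. Of these, 4 were higher, beside 2.68% of all genes, and 4 lower, beside 2.17%. Among expressed chains the number was 7 of 24, beside 4.30% of expressed genes. The higher ones were COL12A1, COL28A1, COL24A1 and COL4A6, and the lower ones COL21A1, COL15A1, COL2A1 and COL9A1. The filter on low counts admits a chain that is high in 1 group only, as with COL21A1 and COL9A1, which passed it through the siNC libraries, so these shares describe the tested chains and not all 44. In a bulk library, fewer cells making a transcript and less of it in each cell cannot be told apart.

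**Figure D2:**
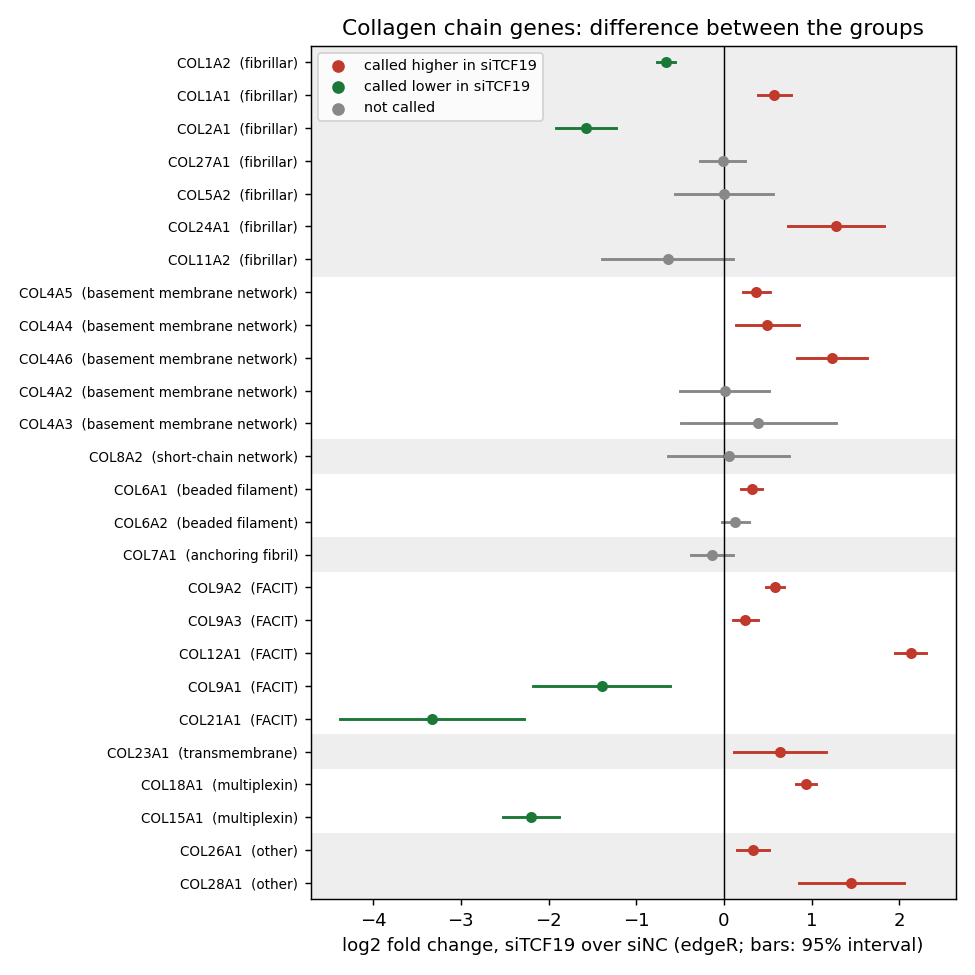
log2 fold change of each tested chain, siTCF19 over siNC, with 95% intervals, by class. Red marks the 13 chains called higher, green the 5 called lower and grey the 8 not called; the range runs from -3.33 for COL21A1 to 2.13 for COL12A1.

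Summed by class on the FPKM scale, the FACIT class was the largest in both groups. It summed to 55.8 ± 2.92 FPKM in siTCF19 and 37.3 ± 1.13 FPKM in siNC (SD, n = 3 per group). Of these sums, COL9A2 alone held 42.3 and 28.3 FPKM, and 2 of the 5 tested FACIT chains were called lower. The rank depends on gene length. By CPM the FACIT sum averaged 281 in siTCF19 and 173 in siNC, and the fibrillar sum 147 and 202. The fibrillar sum was lower in siTCF19, with 13.3, 13.2 and 14.2 FPKM in siTCF19 and 18.8, 18.8 and 18.5 FPKM in siNC, and so held 10.7% of collagen FPKM in siTCF19 and 18.7% in siNC. COL1A2 carried that difference. Without it the fibrillar chains summed to 4.57 ± 0.28 FPKM in siTCF19 and 4.43 ± 0.16 FPKM in siNC. Of the 7 tested fibrillar chains 2 were called higher, 2 lower and 3 not, with a median log2 fold change of -0.01. Among all tested genes, 20.7% were called higher and 20.8% lower. Neither class sum overlapped between the groups. Beaded filament chains summed to 25.6 ± 1.8 FPKM in siTCF19 and 21.4 ± 0.46 FPKM in siNC, and multiplexins to 15.9 ± 0.79 and 10.0 ± 0.43 FPKM. The multiplexin rise lay in COL18A1 (15.5 FPKM in siTCF19 and 8.09 in siNC), while COL15A1 was lower (0.42 and 1.93 FPKM). COL26A1 and COL28A1 together held 7.32% of collagen FPKM in siTCF19 and 7.21% in siNC, and each other class less. These sums are descriptions and were not tested as such.

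**Figure D3:**
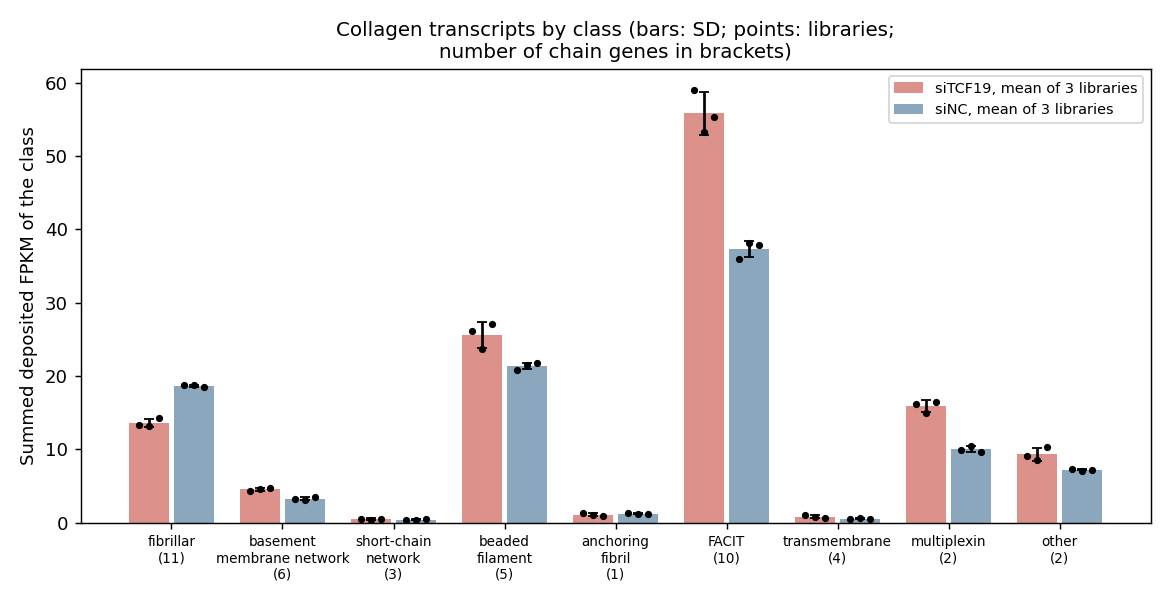
Summed deposited FPKM of each collagen class, with the number of chain genes in brackets. Bars are means of 3 libraries (siTCF19 left, siNC right) with SD, and points are libraries; the FACIT sum is higher and the fibrillar sum lower in siTCF19.

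All 5 tested FACIT chains were called, 3 higher and 2 lower, beside 41.5% of all tested genes called either way. The 2 lower ones, COL21A1 and COL9A1, passed the filter on low counts through the siNC libraries. The other 5 FACIT chains were not tested. COL12A1 (ENSG00000111799, chromosome 6, 75084326 to 75206051, minus strand), whose product associates with type I fibrils, had 922, 884 and 791 counts in siTCF19, against 163, 201 and 225 in siNC. Every siTCF19 library lay far above every siNC library. COL12A1 averaged 56.1 ± 4.45 CPM in siTCF19 and 12.8 ± 1.62 CPM in siNC (SD, n = 3 per group), a 4.37-fold rise (95% interval 3.86 to 4.95) with an edgeR adjusted p of 7.56e-23. COL21A1 (chromosome 6, 56056590 to 56394094, minus strand), another FACIT chain, was close to the counting floor in siTCF19. It had 1, 4 and 2 counts in siTCF19, against 28, 19 and 26 in siNC, with an adjusted p of 1.04e-06. Scaled to library size, the ratio of the summed counts (7 in siTCF19 and 73 in siNC), siNC over siTCF19, was 10.5, with a counting interval (95%, exact) of 4.86 to 27.1. With a pseudocount of 1 added to FPKM, where low genes show less of their change, its log2 difference by limma was -0.26 (adjusted p = 0.00597), smaller than that of COL15A1 (-1.05) on the same scale.

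Chains of type IX, a collagen known from cartilage where it decorates type II fibrils, did not move together. COL9A2 (chromosome 1, 40300487 to 40317813, minus strand) had 2989, 2550 and 2796 counts in siTCF19, against 1668, 1925 and 1931 in siNC. COL9A3 had 736, 627 and 659 counts in siTCF19, against 543, 596 and 551 in siNC. COL9A1 had 11, 9 and 7 counts in siTCF19, against 20, 31 and 20 in siNC. In all 3 the groups were separate, upward for COL9A2 and COL9A3 and downward for COL9A1. COL9A2 rose by 0.58 ± 0.05 on the log2 scale (edgeR adjusted p = 2.21e-12) and COL9A3 by 0.24 ± 0.07 (adjusted p = 0.00529), while COL9A1 stood at -1.39 ± 0.39 (0.00319). COL9A3 lost its call without siTCF19 replicate 1 (0.20, adjusted p = 0.0534), and 45 of its exon bases overlap TCFL5 on the opposite strand, a gene that was not called. On log2(FPKM + 1) COL9A1 stood at -0.17 (adjusted p = 0.0415). The other 5 FACIT chains, COL14A1, COL16A1, COL19A1, COL20A1 and COL22A1, had 0 to 17 counts in all and were not tested.

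Among the fibrillar chains, the partners of type I went in opposite directions. COL1A2 (ENSG00000164692, chromosome 7, 94394561 to 94431232, plus strand) had 1585, 1485 and 1628 counts in siTCF19, against 2376, 2505 and 2477 in siNC. COL1A1 (ENSG00000108821, chromosome 17, 50183289 to 50201632, minus strand) had 406, 373 and 457 counts in siTCF19, against 245, 296 and 281 in siNC. The groups overlapped in neither gene. The log2 fold change was -0.66 ± 0.05 for COL1A2 (edgeR adjusted p = 2.4e-14) and 0.58 ± 0.09 for COL1A1 (adjusted p = 2.08e-06). Per kilobase, COL1A1 stood at 0.291, 0.285 and 0.319 times COL1A2 in the siTCF19 libraries and at 0.117, 0.134 and 0.129 times in the siNC libraries. COL1A1, which supplies more chains to the type I helix than COL1A2 does, was thus the lower transcript of the pair in all 6 libraries, by less in siTCF19.

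COL2A1 (chromosome 12, 47972965 to 48004554, minus strand), the chain of cartilage fibrils, was low and fell further. It had 39, 45 and 50 counts in siTCF19, against 117, 142 and 138 in siNC, or 2.90 ± 0.39 CPM against 8.64 ± 0.53 CPM. It was 2.98-fold lower in siTCF19 (95% interval 2.35 to 3.78, edgeR adjusted p = 3.32e-10), and -0.68 on the log2(FPKM + 1) scale. COL11A2, another chain of cartilage fibrils, had 8, 16 and 20 counts in siTCF19 and 28, 24 and 16 in siNC. These ranges overlap, and COL11A2 was not called (log2 fold change -0.64 ± 0.37, adjusted p = 0.171). COL24A1, a fibrillar chain of the same clade as COL27A1, rose: 41, 60 and 46 counts in siTCF19, against 18, 20 and 22 in siNC (log2 fold change 1.28 ± 0.27, adjusted p = 0.000157). COL27A1 (adjusted p = 0.947, 95% interval of the fold 0.83 to 1.18) and COL5A2 (adjusted p = 0.998, interval 0.68 to 1.48) were not called.

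In the basement membrane class, COL4A5, COL4A6 and COL4A4 were called higher. Their chains are outside the common COL4A1 and COL4A2 helix, of which only COL4A2 was tested. COL4A5 (chromosome X, 108439844 to 108697545, plus strand) had 558, 553 and 588 counts in siTCF19, against 408, 439 and 456 in siNC. COL4A6 (chromosome X, 108155607 to 108439497, minus strand) had 74, 90 and 109 counts in siTCF19, against 37, 38 and 40 in siNC. Both were separate between the groups, with log2 fold changes of 0.37 ± 0.08 (edgeR adjusted p = 0.000108) for COL4A5 and 1.23 ± 0.20 (adjusted p = 1.97e-06) for COL4A6. The products of these genes join in an epithelial basement membrane network. COL4A4 had 81, 105 and 101 counts in siTCF19, against 61, 56 and 85 in siNC, and 1 siTCF19 library lay below the highest siNC library. It was called (0.49 ± 0.18, adjusted p = 0.0232), but not by DESeq2 (adjusted p = 0.0665) or by limma on log2(FPKM + 1) (0.17, adjusted p = 0.117) or log2(FPKM + 0.1) (0.42, adjusted p = 0.135), nor without siTCF19 replicate 2 (0.108), siTCF19 replicate 3 (0.0627), siNC replicate 1 (0.0629) or siNC replicate 2 (0.142). COL4A3, its neighbour, had 6 to 16 counts per library and was not called (0.39 ± 0.44, adjusted p = 0.51), nor was COL4A2 (0.01 ± 0.25, adjusted p = 0.978).

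Type IV genes lie in head-to-head pairs that share a promoter region. The region between COL4A6 and COL4A5, both higher in siTCF19, is shown as an example. It is given as the RefSeq windows (GRCh38.p14) of 250 bases before and 50 bases from each start. The starts are 380 bases apart on opposite strands, and the windows share 121 bases, which open both sequences as reverse complements of each other. Capitals mark the motif CCAAT, the GC box GGGCGG that SP1-like factors can bind, and the motif TATAAA, each searched on both strands, so that a match on the other strand appears as its reverse complement.
COL4A5, chrX:108439588-108439887, plus strand: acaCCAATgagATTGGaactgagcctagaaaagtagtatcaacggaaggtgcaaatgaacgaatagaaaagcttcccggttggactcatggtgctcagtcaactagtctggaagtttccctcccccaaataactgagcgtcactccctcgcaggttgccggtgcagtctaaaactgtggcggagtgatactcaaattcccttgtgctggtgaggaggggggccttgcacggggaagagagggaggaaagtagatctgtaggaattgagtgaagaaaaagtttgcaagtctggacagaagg
COL4A6, chrX:108439409-108439708, minus strand: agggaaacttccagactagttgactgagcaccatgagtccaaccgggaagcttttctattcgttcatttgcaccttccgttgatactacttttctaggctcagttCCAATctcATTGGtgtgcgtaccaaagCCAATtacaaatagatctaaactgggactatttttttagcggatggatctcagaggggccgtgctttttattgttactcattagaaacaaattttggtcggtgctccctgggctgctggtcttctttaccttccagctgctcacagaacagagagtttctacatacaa
The shared stretch holds the CCAAT box on each strand, the COL4A6 window shown has 1 more, and neither window shown has GGGCGG or TATAAA. RefSeq gives COL4A6 a second start, 1416 bases from that of COL4A5. Its window is not shown and shares 0 bases with the COL4A5 window. It holds 1 GGGCGG match and 0 matches of CCAAT or TATAAA. The windows of COL4A3 and COL4A4 share 82 bases, and those of COL4A2 and COL4A1 share 226. In neither of those pairs were both genes called. What part a shared region has in these values was not tested.

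For the largest rise and the largest fall among the expressed chains, COL12A1 and COL15A1, the windows are given in the same way.
COL12A1, chr6:75206004-75206303, minus strand: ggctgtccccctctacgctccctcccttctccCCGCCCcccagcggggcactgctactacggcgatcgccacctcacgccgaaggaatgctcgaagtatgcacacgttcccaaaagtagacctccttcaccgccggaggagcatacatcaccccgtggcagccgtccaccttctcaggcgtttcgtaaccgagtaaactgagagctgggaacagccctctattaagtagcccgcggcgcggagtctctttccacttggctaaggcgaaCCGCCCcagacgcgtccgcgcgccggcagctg
COL15A1, chr9:98943657-98943956, plus strand: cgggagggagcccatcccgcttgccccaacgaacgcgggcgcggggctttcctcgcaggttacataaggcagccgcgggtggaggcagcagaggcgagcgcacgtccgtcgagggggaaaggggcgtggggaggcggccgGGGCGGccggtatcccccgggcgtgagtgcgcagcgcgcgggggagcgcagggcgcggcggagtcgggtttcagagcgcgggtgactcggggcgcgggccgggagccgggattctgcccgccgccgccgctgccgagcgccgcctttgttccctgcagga
COL12A1 holds 2 GGGCGG matches and COL15A1 holds 1, and neither has CCAAT or TATAAA. Windows were at hand for 32 of the 44 collagen genes, 44 windows in all, since some genes have several starts. Of these, 54.5% hold GGGCGG, beside 45.0% of the 35116 windows of all genes, 31.8% hold CCAAT, beside 34.6%, and 18.2% hold TATAAA, beside 11.5%. A match is a description of the letters and not a bound site.

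Both multiplexins were called, in opposite directions, beside 41.5% of all tested genes called either way. COL18A1 (ENSG00000182871, chromosome 21, 45405137 to 45513720, plus strand), the gene of endostatin, had 2154, 1880 and 2141 counts in siTCF19, against 998, 1132 and 1062 in siNC. It averaged 133 ± 6.75 CPM in siTCF19 and 69.6 ± 2.14 CPM in siNC, a 1.92-fold rise (95% interval 1.77 to 2.07, edgeR adjusted p = 8.24e-18). Its exons share 1401 bases, 16.4% of them, with SLC19A1 on the opposite strand, and without a stated strand setting reads there cannot be assigned. SLC19A1 moved the other way, with 69.2 ± 5.05 CPM in siTCF19 and 92.4 ± 2.70 CPM in siNC. COL15A1 (ENSG00000204291, chromosome 9, 98943179 to 99070792, plus strand), its closest relative, had 35, 49 and 46 counts in siTCF19, against 191, 220 and 183 in siNC. Its log2 fold change was -2.20 ± 0.16 (adjusted p = 4.15e-15), and the interval of the decrease was 3.68-fold to 5.74-fold.

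Type VI chains, which form beaded filaments next to basement membranes, differed little. COL6A1 (chromosome 21, 45981737 to 46005050, plus strand) had 1587, 1387 and 1638 counts in siTCF19, against 1138, 1212 and 1315 in siNC, a rise of 0.32 ± 0.06 on the log2 scale (edgeR adjusted p = 1.87e-05). COL6A2, its neighbour on the same strand, had 635, 531 and 631 counts in siTCF19 and 496, 612 and 519 in siNC. Its groups overlapped, and it was not called (0.13 ± 0.08, adjusted p = 0.186). It was called by edgeR on library size alone (0.19, adjusted p = 0.0427) and when siTCF19 replicate 2 was left out (0.20, with an adjusted p of 0.0487).

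The other classes were represented by single chains. COL7A1, the chain of anchoring fibrils, had 221, 186 and 163 counts in siTCF19 and 205, 209 and 206 in siNC and was not called (0.91-fold, 95% interval 0.77 to 1.07). COL8A2, a short-chain network collagen, had 12 to 27 counts per library and was not called (adjusted p = 0.919). COL8A1 and COL10A1, of the same class, had 6 and 62 counts in all and were not tested. COL23A1, a transmembrane collagen, had 51, 40 and 37 counts in siTCF19, against 28, 28 and 25 in siNC, and was called at an edgeR adjusted p of 0.0426 (log2 fold change 0.64 ± 0.26). That call sat at the threshold, and the adjusted p was 0.101 by DESeq2, 0.0772 with no filter, 0.0522 with the replicate number as a block, and above 0.05 without siTCF19 replicate 1 (0.178), siTCF19 replicate 2 (0.0634) or any of the 3 siNC libraries (0.0559 to 0.126). COL13A1, COL17A1 and COL25A1 had 22, 23 and 11 counts in all and were not tested.

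COL26A1 and COL28A1, set apart from the main classes, were both higher. COL26A1 (chromosome 7, 101362820 to 101559024, plus strand) had 435, 385 and 488 counts in siTCF19, against 327, 350 and 352 in siNC, a log2 fold change of 0.33 ± 0.09 (edgeR adjusted p = 0.00205). COL28A1, a chain with von Willebrand factor A domains like those of type VI, had 39, 53 and 47 counts in siTCF19, against 21, 11 and 18 in siNC. Its groups did not overlap, and it rose 2.74-fold (95% interval 1.81 to 4.14, adjusted p = 8.53e-05), or 0.32 on the log2(FPKM + 1) scale.

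The balance within partner pairs was compared as a ratio of counts per kilobase in each library, for the 5 of 10 listed pairs in which both chains were tested. The ratio of COL1A1 to COL1A2 had a log2 mean of -1.75 ± 0.09 in siTCF19 and -2.98 ± 0.10 in siNC (SD, n = 3 per group), a difference of 1.24. COL4A5 over COL4A6 ran from 4.22 to 5.90 in siTCF19 and from 8.63 to 9.04 in siNC. COL9A2 over COL9A3 ran from 4.66 to 4.87 in siTCF19 and from 3.53 to 4.02 in siNC. In these 3 pairs the groups did not overlap. Each had an exact two-sided permutation p of 0.1, the smallest that 3 against 3 libraries allow (0.167 adjusted over 5 pairs). For COL1A1 over COL1A2 this was fixed in advance, since both genes were already separate in opposite directions, so its p adds nothing. COL6A1 over COL6A2 (2.52 to 2.63 in siTCF19, up to 2.55 in siNC, exact p = 0.2) and COL4A3 over COL4A4 (0.105 to 0.218 and 0.118 to 0.253, exact p = 1) overlapped.

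**Figure D4:**
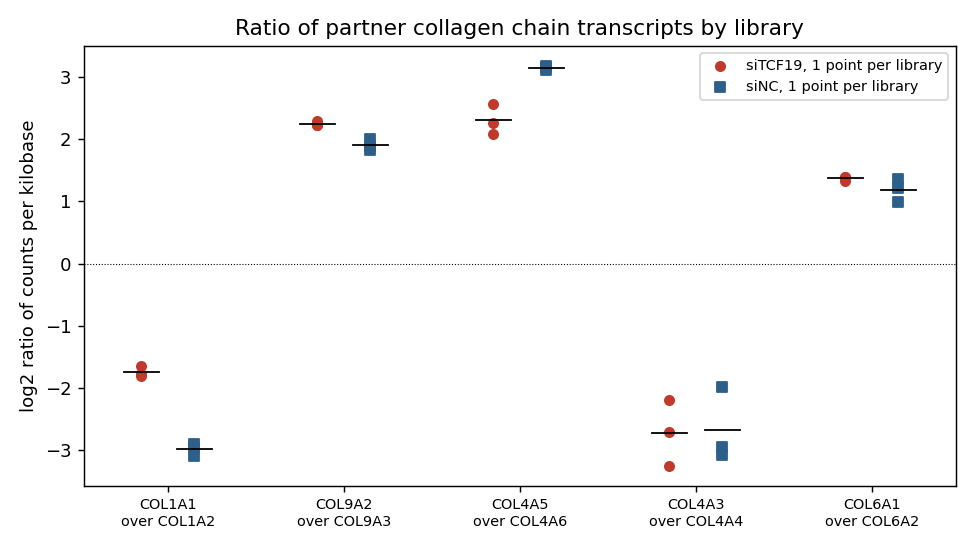
log2 ratio of counts per kilobase for 5 pairs of collagen chains in each library (circles siTCF19, squares siNC, lines group means). The COL1A1 to COL1A2 ratio sits near -1.75 in siTCF19 and -2.98 in siNC, while the COL4A3 to COL4A4 and COL6A1 to COL6A2 ratios overlap.

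The genes that process, cross-link, bind or degrade collagen were read from the same fit. Of 103 listed genes, 83 were tested, 41 rose (49.4%), 17 fell (20.5%) and 25 were not called, beside 20.7% higher and 20.8% lower among all tested genes, so the share that fell was that of all genes. No list was tested as a whole or against another. Of 15 genes of prolyl and lysyl hydroxylation and glycosylation, all tested, 7 rose and 2 fell, beside 20.7% and 20.8% of all tested genes, and the median log2 fold change was 0.08. The prolyl 4-hydroxylase subunit P4HA2 averaged 47.8 ± 3.27 CPM in siTCF19 and 26.5 ± 4.26 CPM in siNC (edgeR adjusted p = 4.01e-11), and the prolyl 3-hydroxylase family gene P3H3 47.9 ± 2.74 and 31.0 ± 2.45 CPM (3.89e-09). PLOD1, a lysyl hydroxylase (0.28), and P3H2 (2.02, from a low level) also rose. Of 13 tested folding and secretion genes, 9 rose and 1 fell (median 0.17), against the same shares. The COPII coat gene SEC23A, which carries procollagen out of the endoplasmic reticulum, averaged 170 ± 6.7 CPM in siTCF19 and 105 ± 2.97 CPM in siNC (6.67e-15), PDIA3 and MIA3 rose by 0.46 and 0.25, and FKBP7, a peptidyl-prolyl isomerase, fell (-0.94).

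Of 7 tested procollagen cleavage genes, 1 rose and 2 fell, near the 20.7% and 20.8% of all tested genes. BMP1, which removes C-propeptides, averaged 24.3 ± 1.51 CPM in siTCF19 and 16.7 ± 0.65 CPM in siNC (edgeR adjusted p = 8.3e-06), while ADAMTS3 (-0.40) and PCOLCE2 (-0.84) fell. Of 7 cross-linking genes, all tested, 3 rose and 2 fell, beside 20.7% and 20.8% of all tested genes. The lysyl oxidase genes LOX (0.88), LOXL1 (0.86) and LOXL4 (2.15) were the ones that rose, LOX with 17.9 ± 1.77 CPM in siTCF19 and 9.76 ± 1.34 CPM in siNC. Transglutaminase 2 (TGM2, -1.72) and peroxidasin (PXDN, -1.06), which cross-links type IV collagen, fell. Of 11 tested fibril and matrix partners, 8 rose and 2 fell (median 0.56), beside 20.7% and 20.8% of all tested genes. NID1, a nidogen that links laminin to type IV collagen, averaged 7.07 ± 1.04 CPM in siTCF19 and 1.54 ± 0.34 CPM in siNC (1.58e-11), and the perlecan gene HSPG2 197 ± 1.06 and 134 ± 14.5 CPM (3.8e-11). THBS1 rose as well (2.38), and TGFBI (-1.05) fell, as did the collagen-binding matricellular gene SPARC (-1.38).

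Of 10 tested collagen receptor genes, 4 rose and 3 fell, beside 20.7% and 20.8% of all genes. The collagen-binding integrin subunits ITGA1 (-0.91), ITGA2 (-0.35) and ITGA10 (-0.33) fell, ITGA1 with 21.6 ± 1.09 CPM in siTCF19 and 40.7 ± 1.04 CPM in siNC (edgeR adjusted p = 9.8e-13). The receptor tyrosine kinase DDR1 averaged 163 ± 5.11 CPM in siTCF19 and 114 ± 7.34 CPM in siNC (6.96e-11), and CSPG4 (0.56), ANTXR1 (0.27) and ANTXR2 (0.72) also rose. ITGB1, the common beta subunit, was not called (-0.01, adjusted p = 0.834). Of 8 tested degradation genes, 4 rose and 2 fell, beside 20.7% and 20.8% of all tested genes. TIMP2 (2.20) and TIMP1 (0.22), which inhibit matrix metalloproteinases, and the cathepsins CTSB (0.32) and CTSL (0.23) rose, and the membrane collagenase gene MMP14 (-0.41) and MMP16 (-0.79) fell. MMP1, MMP8 and MMP13, the secreted collagenases, had 6, 3 and 13 counts in all.

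Of 12 tested regulators of collagen genes, 5 rose and 3 fell, beside 20.7% and 20.8% of all tested genes, the number lower being near that share. SOX9, which activates COL2A1, COL9A1 and COL11A2 in cartilage, averaged 11.4 ± 0.15 CPM in siTCF19 and 85.1 ± 0.57 CPM in siNC (log2 fold change -2.89, edgeR adjusted p = 1.33e-29). Beside it, COL2A1 and COL9A1 were lower, COL11A2 was not called, and COL9A2, also a cartilage collagen gene, was higher. The part of SOX9 in these values was not tested. TGFB2 (-1.22) fell, and SMAD7 (0.82), SMAD3 (0.69) and CTGF (2.13) rose.

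**Figure D5:**
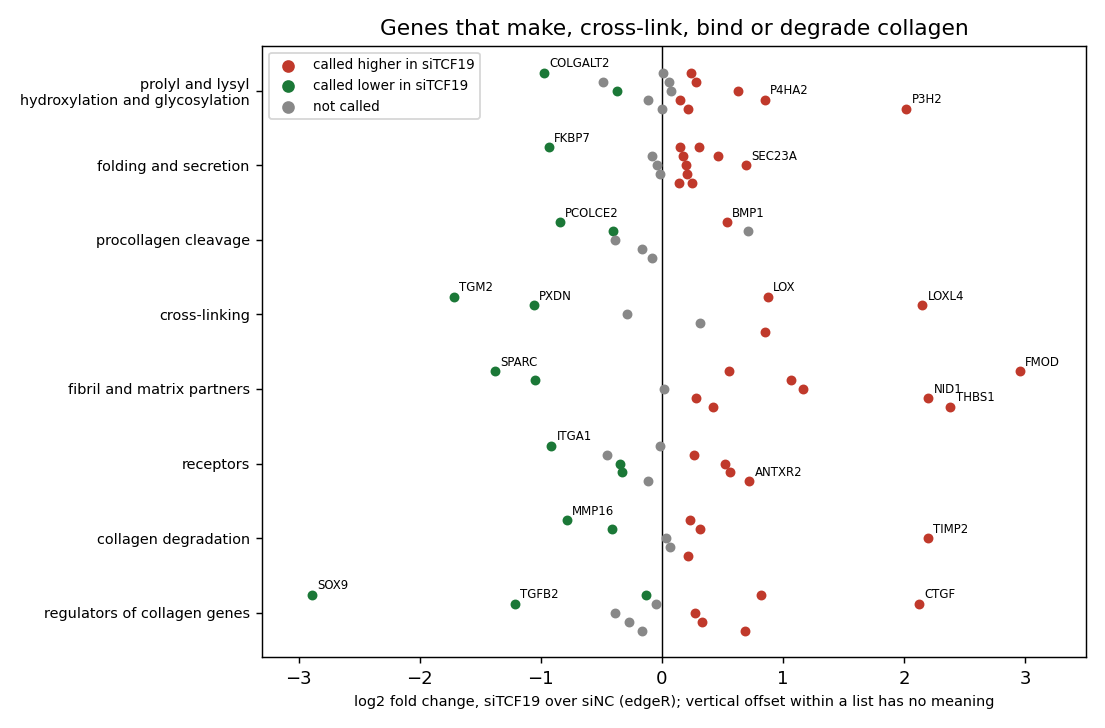
log2 fold change, siTCF19 over siNC, of the 83 tested genes in 8 lists around collagen, 1 point per gene (red called higher, green called lower, grey not called). Folding and secretion genes lie mostly right of 0, with 9 called higher and 1 lower, while SOX9 (-2.89) and TGM2 (-1.72) lie far left.

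The authors' deposited table lists an adjusted p under 0.05 for 16 of the 26 tested chains, all 16 also called here with the same sign. The 2 chains called here alone were COL4A4 and COL23A1, listed there at 0.113 and 0.161. Both rest on the same libraries.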

How the data were processed

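RNA-seq of total RNA from Ishikawa cells was compared between 3 siTCF19 and 3 siNC libraries, grouped by their titles. The submitters' processing notes name HISAT2 2.0.5, featureCounts 1.5.0-p3 and the build hg38. No strand setting or rule for multi-mapping reads was found in them. Per the file headers, the authors deposited read counts and FPKM values per library, together with their own comparison: normalized group means (signal), log2 fold changes, and raw and adjusted p-values, from a tool they do not name there. The deposited gene length served for ratios per kilobase.

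Counts were tested as deposited over the whole table: filterByExpr, TMM factors, edgeR 4.0.16 (glmQLFit, glmQLFTest, R 4.3.3), group as the only term, Benjamini-Hochberg adjustment, called under 0.05. Where no tool is named, an adjusted p-value comes from edgeR. CPM use TMM-scaled library sizes; their errors are SDs, and a log2 fold change carries the standard error given by its F statistic. FPKM alternatives used limma 3.58.1, and DESeq2 1.42.0 was another alternative. Exact permutation tests used scipy 1.17.1, and figures matplotlib 3.10.9. The edgeR intervals cover the spread among these libraries only. The exact counting interval and the floors cover counting error only. The steps were checked on simulated counts.

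The members, classes, partner lists, pairs and tests were chosen with earlier results of these data known. Named are all collagen chains, and per partner list up to 4 called genes by lowest p; further partner genes were named after their values were seen. Promoter sequences are RefSeq's.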

Additional observations from a re-analysis of the deposited data

How the results depend on the processing

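Over 17 alternatives (scaling, filter, DESeq2, limma-trend on FPKM, protein-coding genes only, a stricter threshold, a replicate block and each library left out), 15 of the 18 called chains kept their direction and call, and none of the 18 reversed. The exceptions were COL4A4, COL23A1 and COL9A3. Chains called higher numbered 11 to 14 and chains called lower 5 throughout. With each library left out, chains called higher ran from 11 to 12, called partner genes from 36 to 43 higher and 14 to 17 lower, and all genes from 3198 to 3470 higher and 3087 to 3331 lower. At an adjusted p under 0.01, 2696 genes were higher and 2763 lower, with 11 and 5 chains.

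Same-numbered libraries showed no shared deviation (correlations of 0.01, -0.02 and 0.02). With 3 libraries a group this cannot exclude that same-numbered libraries were made together, which the labels do not say. With the replicate block, 12 chains were higher and 5 lower, and 3433 and 3441 genes of all.

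Only uncalled chains reversed. COL27A1 (log2 fold change -0.01) was at 0.047 on library size alone and COL5A2 (0.00) at -0.0036 with no filter. COL4A2 (0.01) was at -0.0013 on log2(FPKM + 0.1) and at -0.0031 with the block. With a library left out, COL27A1 ran from -0.067 to 0.044, COL5A2 from -0.16 to 0.18, COL4A2 from -0.25 to 0.20 and COL8A2 from -0.14 to 0.33. The cause was not tested. Chains under 50 counts a library have wide intervals at this depth.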
